A study of Mus musculus with 9 samples.

Results

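Signals of a single gene, Xaf1, are described here across 9 Affymetrix Mouse 430 2.0 arrays of cultured mouse lung cells. The members are all probe sets whose only gene symbol in the platform annotation is Xaf1, 1 of 18193 genes named there. There were 2 of them, 1443698_at and 1443621_at, among 45037 probe sets, and both passed the filter on low signal that kept 22519. The gene was picked on its measured signals, because these probe sets are both bright and differed in opposite directions between both knockout groups and wild-type cells, so those differences are given as a description with no test.

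The study isolated alveolar type II cells, the surfactant-secreting cells of the lung alveolus, from mice with and without Nrf2, the transcription factor encoded by Nfe2l2 that switches on antioxidant genes. The groups were Nrf2-/- cells supplemented with glutathione (Nrf2-/- + GSH), Nrf2-/- cells and Nrf2+/+ wild-type cells, with 3 arrays each. All mice were labelled as the ICR10 strain, female and 2 months old, and every culture ran for 5 days on plates coated with fibronectin and collagen, with keratinocyte growth factor added. The sources used here state neither the dose and time of GSH nor the mutant allele. No label says whether replicate arrays stand for separate mice or cultures, so p-values measure the spread between arrays, which may be technical. The array title codes also carry a number, here called the set, whose meaning no source gives. Within each group 2 arrays were of set 2 and 1 array was of set 3.

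The targeted gene followed the genotype labels: the Nfe2l2 probe set 1416543_at averaged 41.6 ± 7.20 in Nrf2-/- + GSH and 59.9 ± 27.1 in Nrf2-/- cells, against 3980 ± 167 in wild-type cells (SD, n = 3 each). The sex label did not hold for all groups. Xist, the RNA that silences an X chromosome in females, read 2693.5 to 4776.6 in Nrf2-/- + GSH and 2443.8 to 4642.9 in Nrf2-/- cells, against 132.2 to 187.8 in wild-type cells. Eif2s3y, on the Y chromosome, read at most 16.2 and 24.4 in these knockout groups, against 701.3 to 936.3 in wild-type cells. The wild-type and knockout groups therefore also differ in these sex-linked signals, and their part in any wild-type comparison cannot be told apart from genotype. Of the markers that define the labelled cell type, surfactant protein C (Sftpc) averaged 107.8 and 89.1 in Nrf2-/- + GSH and Nrf2-/- cells and was above the level of absent controls on 0 of 3 wild-type arrays, at 37.3. Surfactant protein B (Sftpb) averaged 356, 241 and 338 in the same order of groups, above that level on every array. Sftpc did not pass the filter on low signal. The summed signal of the 8 type II cell markers that passed was 9342.7 to 10474.2 in Nrf2-/- + GSH cells. It was 5512.7 to 6208 in Nrf2-/- cells and 5080 to 6086.6 in wild-type cells. Arrays of a group correlated at 0.979 to 0.990 within a set and at 0.951 to 0.968 between sets (Pearson r of log2 signals across probe sets).

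XAF1, the XIAP-associated factor 1, is a zinc finger protein. It was described in human cells as a partner of XIAP, the protein that binds and blocks caspases, and as a promoter of apoptosis. Its gene is switched on by interferons through the JAK-STAT pathway, and it is often counted among the interferon-stimulated genes. In the RefSeq gene table Xaf1 lies on mouse chromosome 11 and has 8 transcripts, of which 2 are curated and 6 are predicted. Its upstream neighbour in that table is 1700051A21Rik and its downstream neighbour is Fbxo39, for which 0 probe sets with that single symbol were on the array. The accessions that the platform annotation pairs with the 2 probe sets differ from each other, and 0 of them are among the 8 RefSeq transcripts. Which transcripts or exons each probe set reads was not analysed here.

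The sequence around the annotated start of Xaf1 is shown because the results set the gene beside other interferon-stimulated genes, many of which carry an interferon response motif. It covers 250 bases before and 50 bases after the start at chr11:72301379-72301678 on the plus strand of GRCm38.p6, from RefSeq, 5′ to 3′. Capitals mark the single match to GAAANGAAA, a motif chosen after the sequence had been read.
Xaf1 promoter: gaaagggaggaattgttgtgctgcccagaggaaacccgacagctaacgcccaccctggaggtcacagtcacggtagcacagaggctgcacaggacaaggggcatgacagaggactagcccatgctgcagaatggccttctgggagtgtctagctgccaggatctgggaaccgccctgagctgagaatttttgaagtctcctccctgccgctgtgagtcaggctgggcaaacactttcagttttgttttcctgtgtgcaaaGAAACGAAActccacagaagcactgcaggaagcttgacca

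The core of the interferon-stimulated response element, a pair of GAAA repeats with 2 bases of any kind between them, was searched on both strands and had 0 matches in the Xaf1 window. It was present in 1131 of 32851 promoter windows of this length (3.44%), and in 13 of 23 interferon-stimulated genes of the list used below that had a window (56.5%). The form with a single base between the repeats, GAAANGAAA, was present in 1040 windows (3.17%) and in 4 of the 23 genes (17.4%). The background was counted by window, while a listed gene counted if any of its windows matched, so the shares are unlike measures. These are matches of letters and do not show that a factor binds.

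The first probe set, 1443698_at, was bright in both knockout groups and dim in wild-type cells. Its signals, in the authors' linear scaled units, were 2909, 2611.6 and 2348.1 on the Nrf2-/- + GSH arrays, 3101.2, 3826.9 and 3248.5 on the Nrf2-/- arrays, and 294.3, 326.6 and 203.2 on the wild-type arrays. The group means were 2623 ± 281 in Nrf2-/- + GSH, 3392 ± 384 in Nrf2-/- and 275 ± 64.0 in wild-type cells (SD, n = 3 each). Every knockout array read above every wild-type array, and every Nrf2-/- array read above every Nrf2-/- + GSH array. All 9 arrays stood above the level of absent controls, taken as the 95th percentile of 27 bacterial control probe sets on the same array, which lay between 43.4 and 82.9.

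The second probe set, 1443621_at, ran the other way. Its signals were 163.5, 145 and 171.4 on the Nrf2-/- + GSH arrays, 128.9, 57.1 and 133.5 on the Nrf2-/- arrays, and 2586.5, 2736.9 and 2724.7 on the wild-type arrays. The means were 160 ± 13.6 in Nrf2-/- + GSH, 107 ± 42.8 in Nrf2-/- and 2683 ± 83.5 in wild-type cells (SD, n = 3 each). Every wild-type array read above every knockout array. The lowest value, 57.1 on Nrf2-/- replicate 3, was below that array's absent-control level of 68.1, and the other 8 arrays were above theirs. The probe set was thus near background in Nrf2-/- cells, where 2 of 3 arrays measured it.

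**Figure D1:**
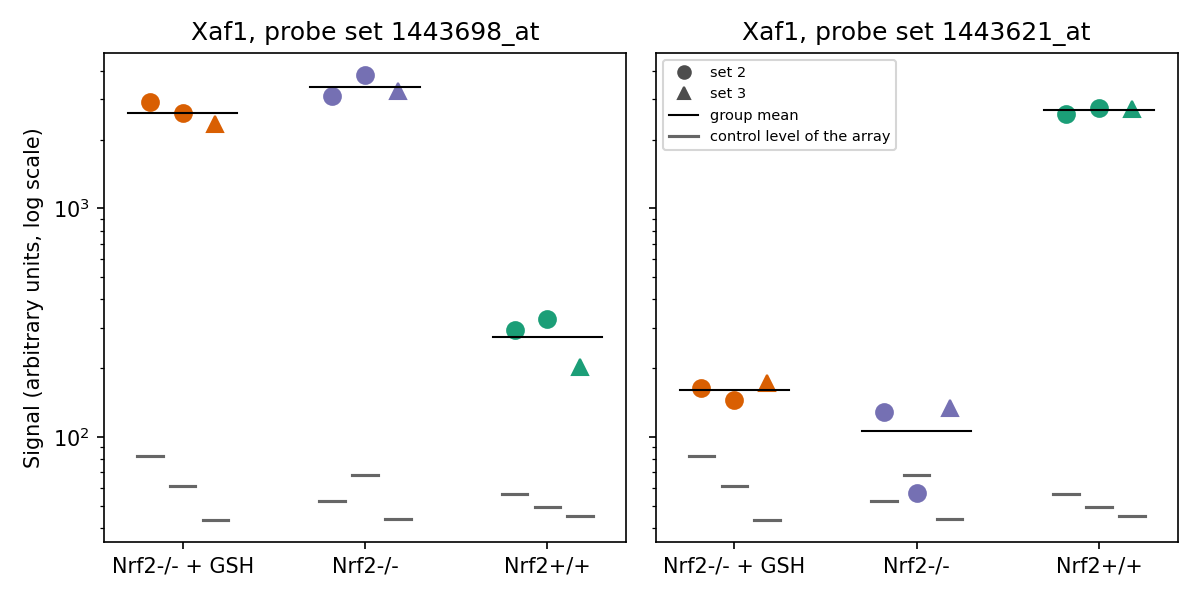
Signal of each Xaf1 probe set on the 9 arrays (log axis, the authors' scaled units), with Nrf2-/- + GSH at the left, Nrf2-/- in the middle and wild-type cells at the right. Points are arrays (circles set 2, triangles set 3), long bars are group means and short grey bars are each array's absent-control level. 1443698_at sits between 2348.1 and 3826.9 in the knockout groups and between 203.2 and 326.6 in wild-type cells, while 1443621_at sits between 57.1 and 171.4 in the knockout groups and between 2586.5 and 2736.9 in wild-type cells.

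In Nrf2-/- against wild-type cells, 1443698_at was higher by 3.65 on the log2 scale (SE 0.12), or 12.5-fold. 1443621_at was lower by about 27.0-fold, a log2 difference of -4.75 (SE 0.25), and its mean in Nrf2-/- cells was 3.97% of that in wild-type cells. This fold is uncertain, since 1 of the 3 Nrf2-/- arrays did not read above the absent controls. Both directions held within each set: 1443698_at differed by 3.47 in set 2 and 4.00 in set 3, and 1443621_at by -4.95 in set 2 and -4.35 in set 3. The groups did not overlap for either probe set, as was the case for 30.2% of all kept probe sets (15.8% higher and 14.4% lower in Nrf2-/- cells). By limma at a Benjamini-Hochberg adjusted p under 0.05, 29.1% of all kept probe sets were called in this comparison, 14.6% in each direction. Nothing is read from these shares, since the comparison chose the gene.

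The differences of Nrf2-/- + GSH from wild-type cells had the same signs. 1443698_at was higher by 3.28 on the log2 scale (SE 0.12), or 9.70-fold, with 3.15 in set 2 and 3.53 in set 3. 1443621_at was lower by 16.8-fold, a log2 difference of -4.07 (SE 0.25), with -4.11 in set 2 and -3.99 in set 3, and its mean was 5.96% of that in wild-type cells. The background in this comparison was 44.7% of kept probe sets called, 22.5% higher and 22.3% lower, and 43.4% with groups that did not overlap, 22.3% higher and 21.1% lower. This comparison and the one above share their wild-type arrays, so they are not independent of each other.

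The comparison of Nrf2-/- + GSH with Nrf2-/- cells did not enter the choice of the gene and was tested. 1443698_at fell by 0.37 on the log2 scale (SE 0.12, 95% interval -0.63 to -0.11), a 1.29-fold decrease, with limma adjusted p = 0.0301, and was lower in 9 of 9 array pairs. The difference was -0.32 within set 2 and -0.47 within set 3. With the replicate number as a block in place of the set, the limma adjusted p was 0.0566 and the call was lost. It was also lost without any 1 of 5 arrays, among them Nrf2-/- replicate 4 (-0.26, limma adjusted p = 0.171), and the limma adjusted p ran from 0.00695 to 0.189 over 18 alternatives, under 0.05 in 8 of them. With no filter on low signal the limma adjusted p was 0.0563 and with no intensity trend 0.0743, so the call depends on several settings and on single arrays.

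For 1443621_at the Nrf2-/- + GSH signal was higher in 9 of 9 array pairs, but the difference of 0.68 (SE 0.25, 95% interval 0.13 to 1.23) missed the threshold, with limma adjusted p = 0.0539. It was 0.84 within set 2 and 0.36 within set 3. Without Nrf2-/- replicate 3, the array on which the probe set was not above the absent controls, it was 0.30. Over 17 alternatives the limma adjusted p ran from 0.0118 to 0.146 and was under 0.05 in 3, among them the fit without Nrf2-/- replicate 2 (0.94, limma adjusted p = 0.0118). Both probe sets thus had separate groups in this comparison, 1 in each direction, where 33.6% of kept probe sets had groups that did not overlap (17.2% higher and 16.4% lower with GSH) and 35.4% were called.

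The change with GSH was set against itself between the probe sets. The log2 change of 1443698_at minus that of 1443621_at was -1.05, with a two-sided exact permutation p = 0.1 over 20 regroupings of the 6 arrays, the smallest p that 3 arrays against 3 allow. A difference between the probe sets in their response to GSH therefore could not pass a threshold of 0.05 by this test. The regroupings also took no account of the set, unlike the limma fit. Over all 9 arrays the log2 signals of the 2 probe sets had a Pearson r of -0.987. The arrays share 3 groups and 2 sets, so this value restates the group differences.

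Disagreement between probe sets of a gene was present elsewhere on the array, at smaller size. Of 5173 genes with at least 2 kept probe sets of that single symbol, 1119 had at least 2 called in Nrf2-/- against wild-type cells, and 50 of these (4.47%) had 1 called higher and 1 called lower. The count of 50 takes in Xaf1, which was picked for this difference, so its place there is a description and no test. It is also the 1 gene of the 50 with differences of at least 2-fold both ways, again by the choice of the gene. Its probe sets differed from each other by 8.40 in log2 difference. The next genes were Galc, the lysosomal enzyme that breaks down galactosylceramide, with 3.84, and Exosc1, a subunit of the RNA exosome, with 3.40.

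Galc probe set 1452907_at averaged 100 in Nrf2-/- + GSH, 97.7 in Nrf2-/- and 810.5 in wild-type cells, and 1420547_at averaged 326.5, 174 and 107 in these groups. The corresponding log2 differences of Nrf2-/- from wild-type cells were -3.15 and 0.69 (limma adjusted p = 2.22e-05 and 0.0152). Dnajb6, a heat shock cochaperone, had a gap of 2.52, the DNA primase subunit gene Prim2 2.36, the cell cycle transcription factor gene E2f5 1.94, the malate dehydrogenase gene Mdh1 1.78 and Imp4, a ribosome biogenesis gene, 1.60. Of the 100 probe sets at the ends of all 50 gaps, 56% carried the plain "_at" suffix, as both Xaf1 probe sets do. The share was 70.6% over all kept probe sets with a symbol. That share also takes in genes with only 1 kept probe set, which could not be among the 100, so nothing is read from the difference. The count of 50 was 8 without the set term. It was also 8 with the replicate block, which left wild-type replicate 5 unmatched and joined replicates 4 across the sets. It was 20 without wild-type replicate 3, 17 without wild-type replicate 4 and 30 without Nrf2-/- replicate 4.

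Addition of GSH to Nrf2-/- cells gave 26 genes that had probe sets called in opposite directions, 1.73% of 1505 with at least 2 called, and 0 of them differed at least 2-fold both ways. Xaf1 was not among them, since 1443621_at was not called. The gaps were 2.33 for the nuclear noncoding RNA Malat1, 2.01 for 1110008P14Rik, 1.89 for the zinc finger gene Hivep3 and 1.78 for the isocitrate dehydrogenase gene Idh2, against 1.05 for Xaf1. Between Nrf2-/- + GSH and wild-type cells there were 85 such genes, 4.25% of 2001, and 2 of them differed at least 2-fold both ways, Galc and, by the choice of the gene and with no test, Xaf1. The count of 26 was 12 with the replicate block and 14 to 17 without Nrf2-/- + GSH replicate 4, Nrf2-/- replicate 4 or wild-type replicate 3 or 4, and the count of 85 was 47 to 55 without wild-type replicate 3 or 4 or Nrf2-/- + GSH replicate 2.

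**Figure D2:**
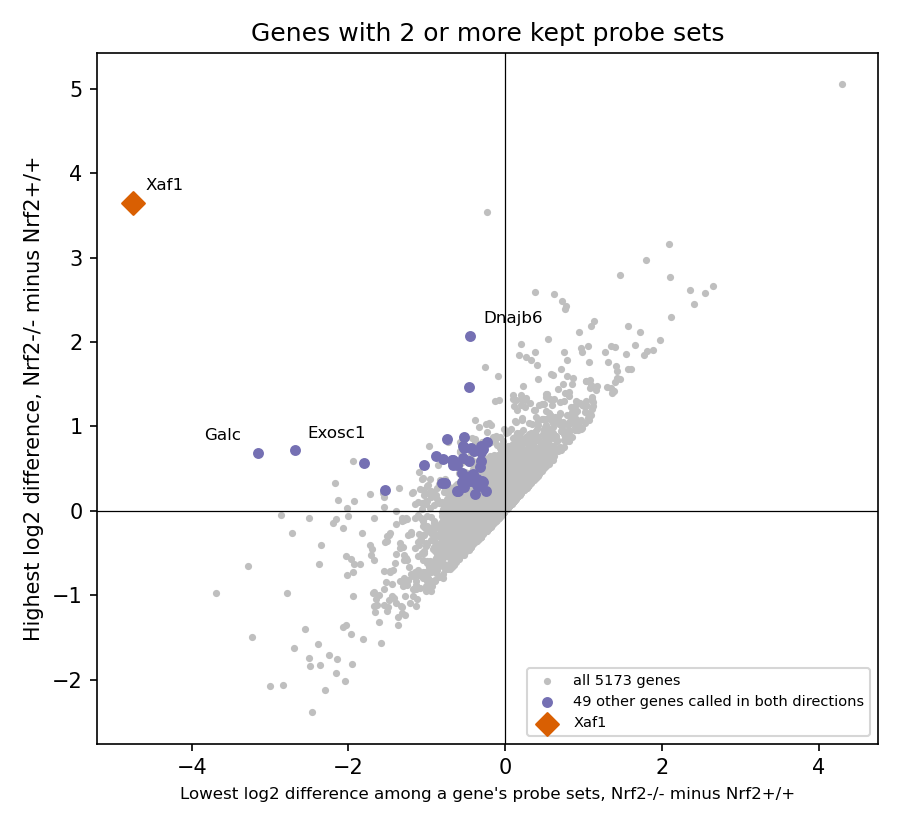
Each point is 1 of 5173 genes with at least 2 kept probe sets; the x axis gives the lowest and the y axis the highest log2 difference (Nrf2-/- minus Nrf2+/+) among its probe sets. Xaf1, at -4.75 and 3.65, lies alone at the upper left, and the 49 other genes called in both directions lie nearer the axes.

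The interferon-stimulated genes were counted beside Xaf1, since it belongs to them. This list and those below were chosen with earlier results of these data known. Of 37 genes listed, 31 other than Xaf1 had a kept probe set, taking the brightest per gene. In Nrf2-/- against wild-type cells 29 of the 31 rose and 0 fell by limma, where 14.6% of all kept probe sets were called in each direction, and the median log2 difference was 1.31 against 0.0026 over all kept probe sets. The 31 genes lay between 0.037 and 2.58. The Xaf1 values beside them, 3.65 for 1443698_at and -4.75 for 1443621_at, are those that chose the gene, so their place outside this range is a description with no test, and the -4.75 rests on a group with 1 of 3 arrays below the absent controls. Across all 47 kept probe sets of these genes 44 were called higher and 0 lower.

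Among the genes with the smallest p in that comparison was Ifit1, which binds viral RNA, at 2.25 (limma adjusted p = 2.45e-09). The restriction factor gene Trim30a rose by 2.02, Usp18, which removes ISG15 from proteins and damps interferon signalling, by 1.31, and Zbp1, a sensor of Z-form nucleic acid, by 2.58. The secreted glycoprotein gene Lgals3bp rose by 1.28 and the mitochondrial protein gene Ifi27l2a by 2.48. Of the same genes, 27 of 31 rose in Nrf2-/- + GSH against wild-type cells and 0 fell, beside 22.5% and 22.3% of all kept probe sets called higher and lower, with a median of 1.17 against 0.021 over all. Across their 47 kept probe sets 40 were called higher and 1 lower. The lower one was 1459151_x_at of Ifi35, at -0.28 (limma adjusted p = 0.0138), while 1445897_s_at of the same gene was called higher at 0.59.

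With GSH the interferon-stimulated genes moved both ways. Against Nrf2-/- cells, 7 of 31 rose and 10 fell in Nrf2-/- + GSH, beside 18.4% and 17.0% of all kept probe sets called higher and lower, and the median was 0.0010 against 0.041 over all. 1443698_at, at -0.37, had 22 of the 31 above it and 9 below. 1443621_at, at 0.68, had 1 above it and 30 below. The chemokine gene Cxcl10 fell by 1.48 (limma adjusted p = 1.63e-07), Ifit1 fell by 1.05, its relative Ifit3 fell by 1.01, Zbp1 fell by 1.04, and the guanylate-binding protein genes Gbp2 and Gbp3 fell by 0.95 and 0.85.

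**Figure D3:**
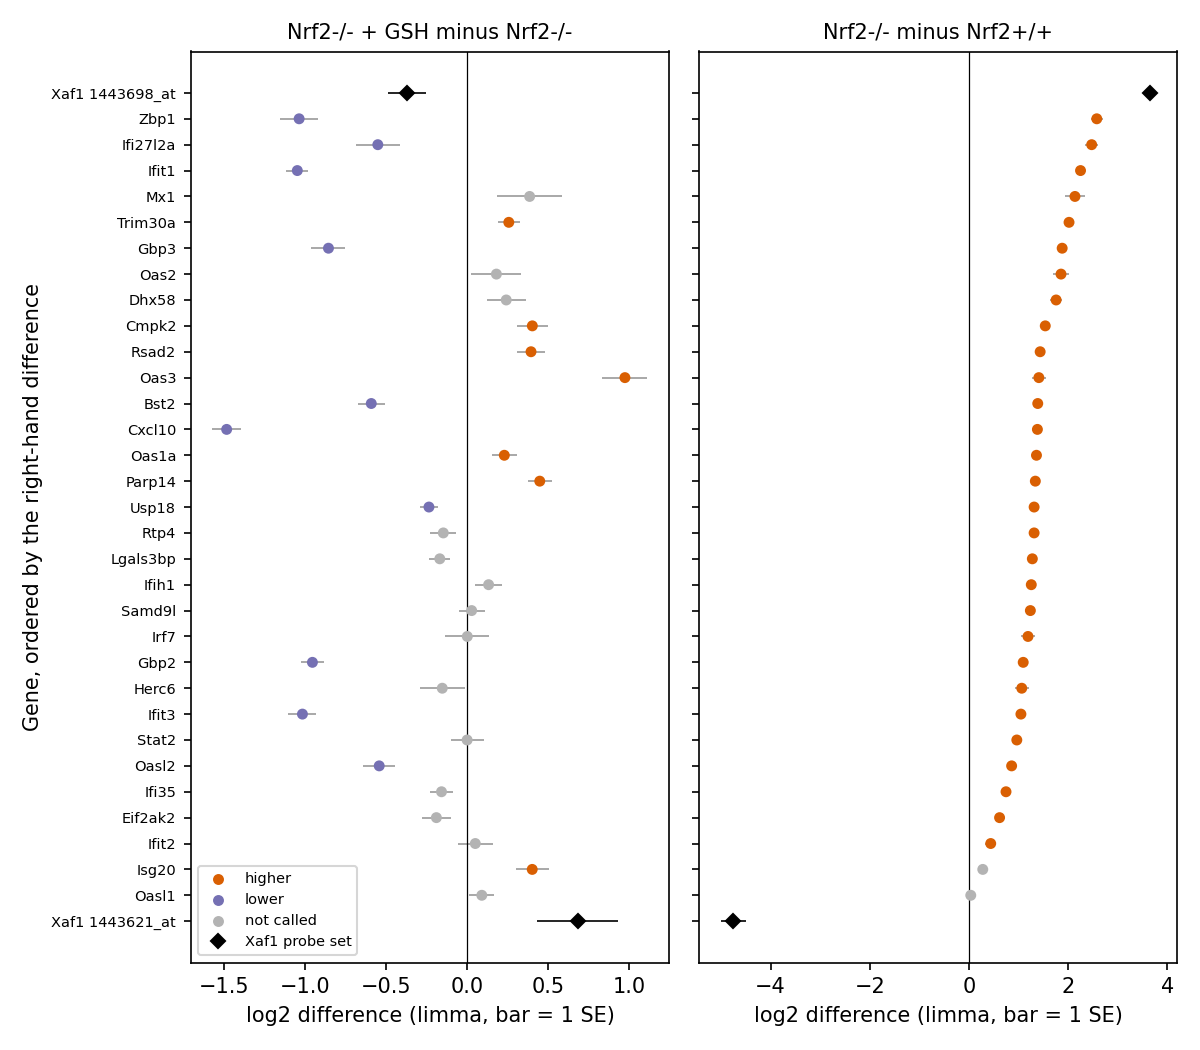
Log2 differences of the 31 measured interferon-stimulated genes (points, with 1 SE) and of the Xaf1 probe sets (black diamonds), for Nrf2-/- + GSH minus Nrf2-/- at the left and Nrf2-/- minus Nrf2+/+ at the right. In the right panel the genes lie between 0.037 and 2.58, with 1443698_at at 3.65 and 1443621_at at -4.75, the values that chose the gene, drawn beside them; in the left panel they lie on both sides of 0.

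Genes upstream of Xaf1 in interferon signalling, the receptors, JAK kinases, STATs, interferon regulatory factors and SOCS inhibitors, had 17 measured members, of which Stat2 and Irf7 are also in the list above. In Nrf2-/- against wild-type cells 13 rose and 0 fell, beside 14.6% of all kept probe sets called in each direction, with a median of 0.56 against 0.0026 over all. Ifnar2, a chain of the type I interferon receptor, rose by 0.81, Socs3, a feedback inhibitor, by 0.83, and Stat2, part of the factor that binds the response element, by 0.97. Its partner Irf9 rose by 0.67, Irf7, which amplifies type I interferon production, by 1.19 and the myeloid regulator Irf8 by 0.82. With GSH, 5 rose (3 with the replicate block) and 3 fell against Nrf2-/- cells, beside 18.4% and 17.0% of all kept probe sets, so the number that fell was near the background. Ifnar2 fell by 0.52 and Irf9 fell by 0.36, while Irf5 rose by 0.77, Irf8 by 0.63, and the interferon gamma receptor genes Ifngr2 and Ifngr1 by 0.48 and 0.46. The Nrf2-/- + GSH cells had 16 higher and 0 lower than wild-type cells, beside 22.5% and 22.3% of all kept probe sets. The 16 were 9 with the replicate block and 7 by a rule of 1.5-fold in at least 6 of 9 array pairs. Across their 31 kept probe sets 23 were called higher and 1 lower. The lower one was 1440169_x_at of Ifnar2, at -0.54 (limma adjusted p = 0.00775), while 1451462_a_at of the same gene was called higher at 0.29. Ifnar2 is thus among the genes with opposite calls in this comparison.

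On the apoptosis side, 12 inhibitor of apoptosis genes, their antagonists and caspase pathway genes were measured. In Nrf2-/- against wild-type cells 5 rose and 0 fell, beside 14.6% of all kept probe sets called in each direction. Birc2 rose by 0.77, Birc3 by 0.75 and Birc5 by 0.29, which encode inhibitor of apoptosis family members, Casp8, the initiator caspase of death receptors, by 0.35, and Apaf1, the scaffold of the apoptosome, by 0.64. Xiap itself differed by -0.08 (limma adjusted p = 0.455). With GSH, 2 of the 12 rose and 2 fell against Nrf2-/- cells, beside the 18.4% and 17.0% of all kept probe sets. Xiap rose by 0.31 (limma adjusted p = 0.00693) and Casp8 by 0.38, and Birc2 fell by 0.73 and Birc5 fell by 0.66. Of the 12, 5 rose and 1 fell in Nrf2-/- + GSH against wild-type cells, beside 22.5% and 22.3% of all kept probe sets. Across the 21 kept probe sets of these genes, 11 were called higher and 1 lower in that comparison. In Nrf2-/- + GSH against Nrf2-/- cells 6 were higher and 2 lower, and in Nrf2-/- against wild-type cells 6 and 0.

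Of partners of XAF1 described in human cells, 7 were measured. In Nrf2-/- against wild-type cells 1 rose and 1 fell, which is near the 14.6% of all kept probe sets called in each direction. Rnf114, a ubiquitin ligase, rose by 0.70 and Hipk2, a kinase that promotes apoptosis, fell by 0.31. Hipk2 rose by 0.67 in Nrf2-/- + GSH against Nrf2-/- cells, Xiap rose as above, and 0 fell, beside 18.4% and 17.0% of all kept probe sets. Against wild-type cells, 3 rose and 0 fell in Nrf2-/- + GSH, beside 22.5% and 22.3%. Across the 20 kept probe sets of these genes, 12 were called higher and 0 lower in that comparison. In Nrf2-/- + GSH against Nrf2-/- cells 7 were higher and 0 lower, and in Nrf2-/- against wild-type cells 2 and 1.

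Markers of other cells moved with these comparisons. Macrophages express many interferon-stimulated genes, and the protocol panned cells on IgG-coated plates to remove macrophages. The summed signal of 18 macrophage markers was 124195.9 to 150505.2 in Nrf2-/- + GSH and 97398.5 to 118014.6 in Nrf2-/- cells, against 58095.2 to 61035.5 in wild-type cells. All 18 were above the absent controls on at least 1 array of each group, and 16 rose and 2 fell in Nrf2-/- against wild-type cells, beside 14.6% of all kept probe sets in each direction. The sum of 8 epithelial markers was 72215.1 to 78697.7 in Nrf2-/- + GSH and 15042.1 to 16083 in Nrf2-/- cells, against 52619.2 to 53211.2 in wild-type cells. That of 14 fibroblast and mesenchymal markers was 87882.4 to 100392.9, 145762.3 to 189962 and 125832 to 134438.7 in the same order of groups.

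1443621_at was within 57.1 to 171.4 in both knockout groups, whose epithelial sums were the highest and the lowest of the 3 groups. 1443698_at was high in both groups with high macrophage sums. The part of these markers in the Xaf1 signals was not tested. In RNA of mixed cells, fewer cells of a type and less RNA per cell cannot be told apart.

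Genes next to Xaf1 on chromosome 11 did not show differences of its size. The 10 nearest genes with a kept probe set, 5 on each side (Txndc17, Med31, 4930563E22Rik, Slc13a5 and 1700051A21Rik upstream, Mybbp1a, Spns2, Spns3, Ube2g1 and Ankfy1 downstream), had 15 probe sets. In Nrf2-/- against wild-type cells 2 of the 15 rose and 5 fell, 46.7% against 29.1% of all kept probe sets, and the largest difference was -0.76 for Spns2, a sphingosine-1-phosphate transporter. Med31, a subunit of the Mediator complex, rose by 0.49, the endosomal protein gene Ankfy1 rose by 0.27, and the nucleolar protein gene Mybbp1a fell by 0.44 and 0.37 on its 2 probe sets.

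With GSH 3 of the 15 rose and 0 fell against Nrf2-/- cells, 20% against 35.4% of all kept probe sets, namely Spns2 by 0.90, 1700051A21Rik by 0.71 and 1 of 3 probe sets of Txndc17, a thioredoxin-like protein, by 0.43. Over 15 genes on each side, with 49 probe sets, 30.6% were called in Nrf2-/- against wild-type cells and the largest difference was 0.93 in size. In Nrf2-/- + GSH against wild-type cells 26.5% of the 49 were called, against 44.7% of all kept probe sets, and the largest difference was 1.15. The Xaf1 differences of 3.65 and -4.75, which chose the gene, are given beside these ranges as a description.

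**Figure D4:**
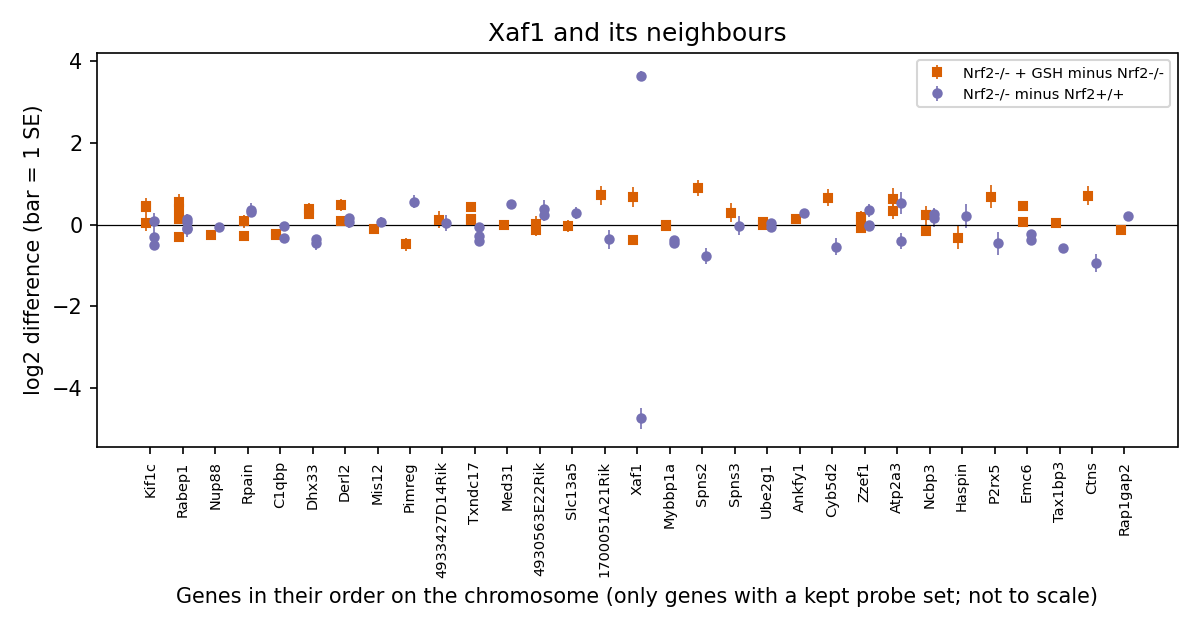
Log2 differences (squares Nrf2-/- + GSH minus Nrf2-/-, circles Nrf2-/- minus Nrf2+/+, bars 1 SE) of every kept probe set of Xaf1 and of the 15 genes on either side, in gene order along chromosome 11 and not to scale. The neighbours differ by at most 0.93, and the Xaf1 probe sets lie at 3.65 and -4.75 for Nrf2-/- minus Nrf2+/+.

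The probe sets whose log2 signals over the 9 arrays were most like each Xaf1 probe set are named as a description. The 2 lists had to differ, since the Xaf1 probe sets were picked for opposite differences and had a Pearson r of -0.987. Nearest to 1443698_at were Cd47, the signal on cells that blocks phagocytosis, with a Pearson r of 0.993, Lgals3bp with 0.991, the interferon-stimulated gene Herc6 with 0.990, Rbpj, the Notch pathway transcription factor, with 0.989, and the interferon-stimulated chaperone gene Rtp4 with 0.989. Cd47 averaged 2245 in Nrf2-/- + GSH, 2325 in Nrf2-/- and 1262 in wild-type cells. Rtp4 averaged 5647, 6266 and 2509 in these groups. Nearest to 1443621_at were the palmitoyltransferase gene Zdhhc2 with 0.990, Ints6, an Integrator subunit, with 0.987, Baiap2l1, an actin-regulating adaptor, with 0.986, Pcyox1, which breaks down prenylcysteines, with 0.985, and Ankrd50 with 0.984. Zdhhc2 averaged 435 in Nrf2-/- + GSH, 412 in Nrf2-/- and 830 in wild-type cells. Each list was near a mirror image for the other Xaf1 probe set: Rtp4 had a Pearson r of -0.9965 with 1443621_at, and Ints6 had -0.9931 with 1443698_at. The arrays share groups and sets, so these correlations order genes by how closely they follow the same group means.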

How the data were processed

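RNA of cultured lung cells was hybridised to 9 one-colour arrays, 3 per group. The deposited values are linear intensity per probe set, scaled by the authors so that each array's mean, leaving out 2% at each end, is 500 (from the values). The sources used here do not name the summary method. Of 45101 probe sets 64 controls were left out, 2 values at 0 were set to 0.1, and log2 was taken. Probe sets were kept at or above the median of mean log2, a geometric mean of 116. limma 3.58.1 (R 4.3.3) fitted all 9 arrays with group and set, with an intensity trend, and calls are at a Benjamini-Hochberg adjusted p under 0.05 over 22519 probe sets. It was tested on data simulated for Nrf2-/- + GSH against Nrf2-/-. It recovered 48% of 100 simulated log2 differences of size 1 and 90% of 100 of size 2. Only these of the 22519 probe sets were changed, while 7964 were called in the data. The simulated noise already held the difference between sets, which was then added again. The shares therefore do not give the sensitivity of the calls in the data. Smaller differences, such as those of the Xaf1 probe sets with GSH, were not simulated. The number of arrays limits the precision.

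Symbols came from the platform annotation, where 34945 probe sets had 1 symbol, 932 several and 9160 none. The members and gene lists were chosen with earlier results of these data known. Named were the Xaf1 probe sets, the 5 most like each, the 5 nearest measured genes on each side, the (at most 6) lowest-p members per list in each of Nrf2-/- + GSH against Nrf2-/- and Nrf2-/- against wild type, and the 8 and 4 genes with the widest opposite calls. Same-numbered Nrf2-/- + GSH and Nrf2-/- arrays deviated together from their group means (r = 0.32, 0.29 and 0.67 across probe sets). Arrays of set 2 with unlike numbers did so too (0.39 and 0.24). Nrf2-/- and wild-type replicates 3, both of set 2, had r = 0.42, while their replicates 4, of unlike sets, had -0.49. Wild-type replicate 5, of set 3, had 0.70 with Nrf2-/- replicate 4 and 0.64 with Nrf2-/- + GSH replicate 4, of that set but another number. In these pairs the shared deviation went with the set and not with the number. The fit with group and set did not pair arrays by number, and the number entered only as a block in an alternative. In that block wild-type replicate 5 had no partner and wild-type replicate 4 was joined to knockout arrays of the other set. Its comparisons with wild type are therefore not like for like with the main fit. Alternatives changed the filter, normalization, offset, set term, block, trend, call rule and arrays.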

Additional observations from a re-analysis of the deposited data

How the results depend on the processing

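No alternative reversed the sign of an Xaf1 difference. For 1443698_at, Nrf2-/- + GSH against Nrf2-/-, the difference stayed at -0.37 but lost its call with no filter (limma adjusted p = 0.0563), no set term (0.189), the replicate block (0.0566) and no trend (0.0743), and it was -0.32 on set 2 alone (0.0795). Leaving out 1 array gave -0.49 to -0.26, and the call was lost without Nrf2-/- + GSH replicate 2, 3 or 4 or Nrf2-/- replicate 3 or 4. For 1443621_at the difference of 0.68 gained a call at 0.46 with 50 added (limma adjusted p = 0.0495), and leaving out 1 array gave 0.30 to 0.94, with calls gained without Nrf2-/- replicate 2 or 4. The filter at the 70th percentile dropped this probe set, so it has no value there. Against wild type, 1443698_at stayed at 3.06 to 3.37 with GSH and 3.42 to 3.77 without, and 1443621_at at -4.19 to -3.70 (the last with 50 added) and -5.01 to -4.17. The replicate block changed no other call of the Xaf1 probe sets.

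Kept probe sets called were 7964 for Nrf2-/- + GSH against Nrf2-/-, but 4574 without the set term and 3626 by a fold rule (1.5-fold in at least 6 of 9 pairs). They were 6560 for Nrf2-/- against wild type, but 2774 without the set, 3253 with the replicate block and 2521 by the fold rule, and 10074 for Nrf2-/- + GSH against wild type, but 6181, 6586 and 4807 under the same changes. Leaving out 1 array gave 6659 to 7847, 4500 to 6825 and 8184 to 10452. Genes with opposite calls, 26 in Nrf2-/- + GSH against Nrf2-/-, were 15 with the 70th percentile filter, 4 without the set, 12 with the block, 16 on the 6 arrays compared, 13 on set 2, 3 by the fold rule and 14 to 28 leaving out 1 array. The 50 in Nrf2-/- against wild type were 8 without the set, 8 with the block, 28 on set 2, 33 without the trend, 5 by the fold rule and 17 to 61 leaving out 1 array. The 85 in Nrf2-/- + GSH against wild type were 41 with the 70th percentile filter, 21 without the set, 17 with the block, 10 by the fold rule and 47 to 100 leaving out 1 array. Interferon-stimulated genes higher in Nrf2-/- + GSH than in Nrf2-/-, 7, were 4 without the set, 4 on set 2 and 1 by the fold rule, and the 10 lower were 6 by the fold rule. The block counts against wild type carry the limit given above, that numbers and sets do not match there. The cause of these shifts was not tested.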
